A study of Mus musculus with 8 samples.

Results

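The genes described here are 9 regulators of multiciliated cell differentiation, Foxj1, Ccno, Mcidas, Gmnc, Cdc20b, Deup1, Rfx2, Rfx3 and Myb, in the E15.5 mouse hippocampus. They were chosen by name after the comparison of IUGR with sham in these same libraries had been seen, and several were selected on that contrast. Their IUGR and sham values are therefore a description, no p-value is printed for them, and where a member is said to meet the call rule used for all genes, this only describes the fit and supports nothing. All 9 were found among the 16397 rows of the count table, 8 by name and Deup1 by its Ensembl identifier under the older symbol Ccdc67. RNA was sequenced from hippocampi of 8 C57Bl/6J offspring at E15.5, 4 per group. Dams of the IUGR group (T1-1, T1-3, T1-4, T1-5) were made hypertensive from E12.5 by an osmotic pump that released U-46619, an analog of thromboxane A2, and dams of the sham group (S1-4, S1-6, S3-1, S3-4) had the same surgery with a pump of vehicle. The question was which transcripts differ in the hippocampus when fetal growth is restricted by the mother's hypertension. Neither the labels nor the methods say which samples share a dam, and the prefixes T1, S1 and S3 of the sample names are not explained. All IUGR samples carry the prefix T1 and no sham sample does, so if a prefix marks a dam or a day of surgery, its effect and that of IUGR cannot be told apart.

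Multiciliated cells carry many motile cilia and need many basal bodies, which they build without dividing. In the textbook order, the geminin relatives Gmnc and Mcidas bind E2F and DP factors and switch the program on, Myb acts early in it, Ccno, Cdc20b and Deup1 serve the amplification of centrioles, and Foxj1 works with RFX factors such as Rfx2 and Rfx3 on the genes of the motile axoneme. In the embryonic forebrain the choroid plexus epithelium, which grows out of the medial wall next to the cortical hem and the hippocampus, is the epithelium known for its cilia at this age, while ependymal cells gain theirs around birth.

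Total counts ran from 12919546 to 16672463 in the IUGR group and from 11212632 to 15405748 in the sham group. Values below are counts scaled to library size with TMM factors (CPM), and a count of 3 is worth 0.184 to 0.277 CPM, depending on the library. When the samples were clustered on log2 CPM into 2 clusters, T1-1 and T1-4 stood apart, and the remaining IUGR samples clustered with sham. Markers of choroid plexus epithelium moved with the groups: 15 of 15 tested markers had a lower IUGR mean, and their summed level, with Ttr and Prlr included, was 44.4 to 1195 CPM in the IUGR samples and 5534 to 12150 CPM in the sham samples, where most of it came from Ttr. Summed level was 67.1 CPM in T1-1 and 44.4 CPM in T1-4, against 1195 CPM in T1-3 and 843.9 CPM in T1-5. Tmem72 was the single marker of this list with a library at 0. In bulk tissue, fewer cells of a type and less RNA per cell cannot be told apart.

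Foxj1, the forkhead factor that drives the genes of motile cilia, was the member whose low IUGR values varied least, relative to the sham mean, among the 6 with the largest fold changes. Foxj1 stood at 21.8, 26.5, 15.1 and 15.1 CPM in T1-5, T1-3, T1-1 and T1-4 and at 90.3, 102.6, 122 and 86.4 CPM in S1-6, S3-4, S1-4 and S3-1. The highest IUGR sample was far below the lowest sham sample, and the 4 IUGR samples lay close together. The means were 19.6 ± 5.56 CPM (SD, n = 4) for IUGR against 100.3 ± 16.04 CPM (SD, n = 4) for sham, so the sham mean was 5.11 times the IUGR mean. The fitted log2 fold change was −2.35 (SE 0.21), and Foxj1 met the rule for a call, which asks edgeR's quasi-likelihood test for an adjusted p no higher than 0.05 and the log2 fold change for a size of 1 or more. Leaving out single samples gave log2 fold changes between −2.50 and −2.21. Foxj1 no longer met the rule when the 2 sham samples of prefix S1 alone (−2.43) or those of prefix S3 alone (−2.24) were used. The gene lies on chromosome 11 at 116330704 to 116335399 on the minus strand of GRCm38.

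**Figure D1:**
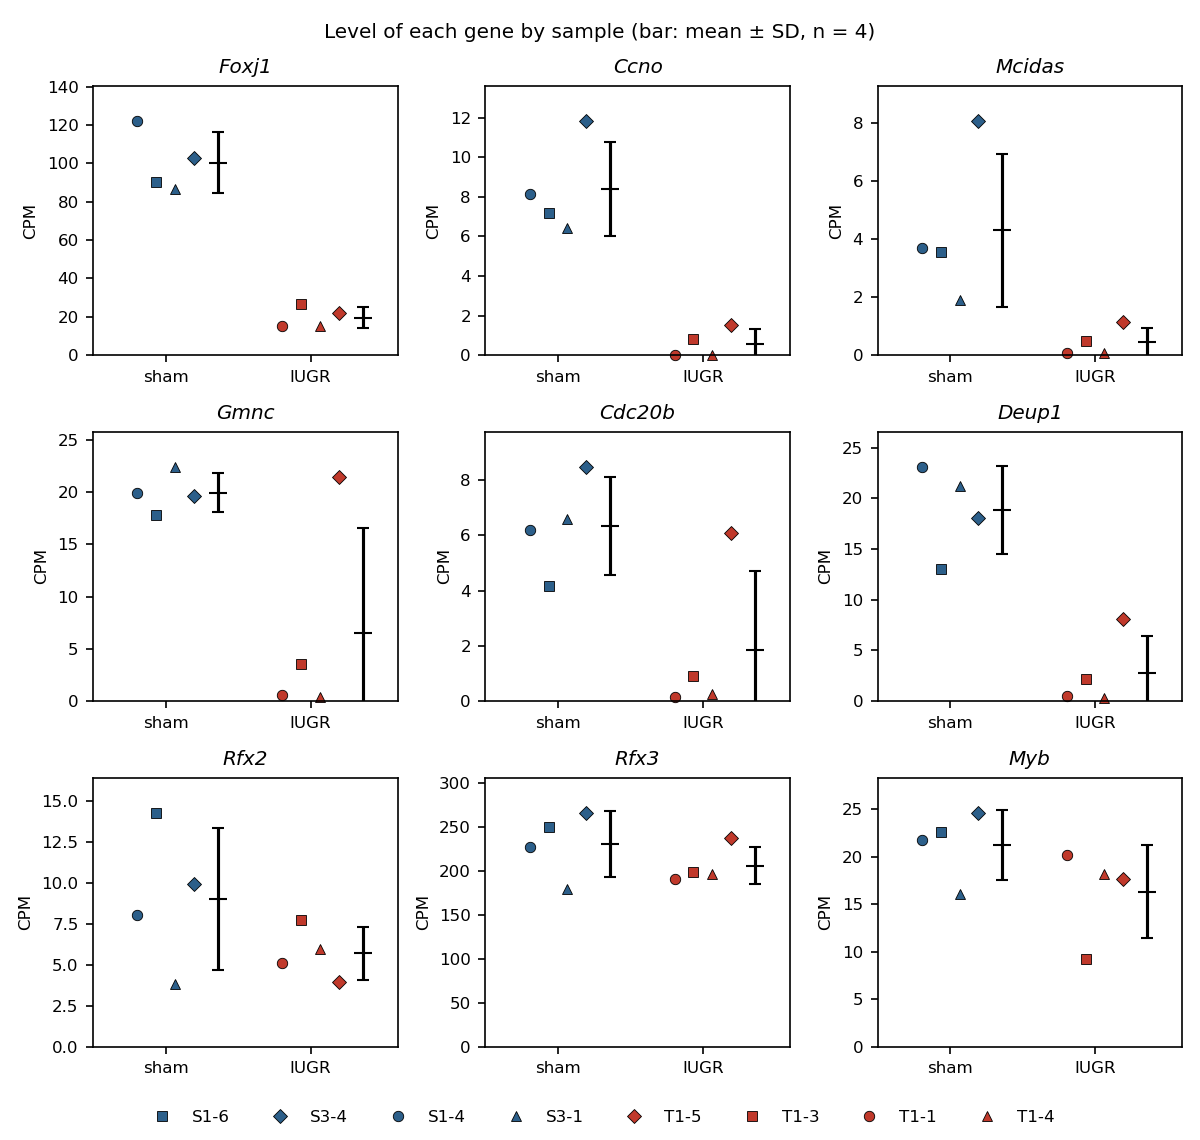
Level of each of the 9 genes in CPM (vertical axes from 0, scaled per gene) in the 4 sham samples (blue) and the 4 IUGR samples (red), with the marker shape naming the sample and the black bars showing mean ± SD, cut at 0. Foxj1, Ccno, Mcidas and Deup1 show no overlap between the groups, T1-5 lies among the sham samples for Gmnc and Cdc20b, and the groups overlap for Rfx2, Rfx3 and Myb.

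Gmnc and Mcidas, both coiled-coil relatives of geminin, are placed at the top of the program. Gmnc was measured at 21.4, 3.50, 0.599 and 0.421 CPM in T1-5, T1-3, T1-1 and T1-4 and at 17.8, 19.7, 19.97 and 22.4 CPM in S1-6, S3-4, S1-4 and S3-1. The sham samples were nearly alike, T1-5 sat within their range, and the other three IUGR samples were all lower, T1-1 and T1-4 on only 8 and 5 counts. Group means were 6.49 ± 10.1 CPM (SD, n = 4) and 19.98 ± 1.89 CPM (SD, n = 4), with a log2 fold change of −1.62 (SE 0.90). Without T1-5 it was −3.66. Gmnc occupies chromosome 16 from 26913553 to 26991652 on the minus strand.

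Mcidas, the partner that acts after Gmnc, was measured at 1.14, 0.492, 0.0749 and 0.0843 CPM in T1-5, T1-3, T1-1 and T1-4, and at 3.55, 8.06, 3.70 and 1.88 CPM in S1-6, S3-4, S1-4 and S3-1. All IUGR samples were below all sham samples, but S3-1 was close to T1-5, and the sham samples themselves differed widely. Counts were small, 15, 8, 1 and 1 in the IUGR samples and 24 to 113 in the sham samples. Means were 0.448 ± 0.501 CPM (SD, n = 4) for IUGR against 4.30 ± 2.64 CPM (SD, n = 4) for sham, with a log2 fold change of −3.22 (SE 0.72), and of −4.16 without T1-5. The mean IUGR count was 6.25, so Mcidas passed the count filter only through its sham samples.

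Ccno, an atypical cyclin needed for the amplification of centrioles, had the largest fold change of the 9 genes. It was measured at 1.52 and 0.799 CPM in T1-5 and T1-3, had a count of 0 in T1-1 and T1-4, and stood at 7.19, 11.8, 8.13 and 6.43 CPM in S1-6, S3-4, S1-4 and S3-1. Every IUGR sample was below every sham sample, and the counts of 0 allow up to 0.225 CPM in T1-1 and 0.253 CPM in T1-4. The means were 0.580 ± 0.732 CPM (SD, n = 4) and 8.40 ± 2.39 CPM (SD, n = 4), a ratio of sham to IUGR means of 14.5. The log2 fold change was −3.81 (SE 0.80), and the mean IUGR count of 8.25 means that Ccno, too, passed the count filter only through its sham samples. Ccno met the call rule with all samples and without T1-5 (−4.78), and no longer on leaving out T1-3, T1-1, T1-4, S1-6, S3-4, S1-4 or S3-1, with fold changes between −3.98 and −3.38.

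Cdc20b, a relative of the cell cycle protein Cdc20 that is known from deuterosome work, was measured at 6.08, 0.922, 0.150 and 0.253 CPM in T1-5, T1-3, T1-1 and T1-4, against 4.16, 8.48, 6.19 and 6.59 CPM in S1-6, S3-4, S1-4 and S3-1. As for Gmnc, T1-5 was inside the sham range and the other three IUGR samples were below it, T1-1 and T1-4 on 2 and 3 counts. The means were 1.85 ± 2.84 CPM (SD, n = 4) and 6.36 ± 1.77 CPM (SD, n = 4). The log2 fold change was −1.78 (SE 0.84), and −3.76 without T1-5.

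Ccno, Mcidas and Cdc20b lie next to each other on the plus strand of chromosome 13, at 112987802 to 112990777, 112993845 to 113000394 and 113035111 to 113091195. The tested neighbours at lower coordinates did not share their fold changes: Dhx29, an RNA helicase, had −0.09 (SE 0.13), Mtrex, the helicase of the nuclear exosome, 0.08 (SE 0.17), and Plpp1, a lipid phosphatase, 0.02 (SE 0.26), each with an adjusted p of 1.00 by edgeR with Benjamini-Hochberg adjustment. Gpx8, a peroxidase gene inside Cdc20b on the opposite strand, had −0.62 (SE 0.30, edgeR adjusted p = 0.518). The groups overlapped for all 4 of these genes. Gzma and Gzmk, the next genes at higher coordinates, were not analysed here. The strand setting of the counting is not given in the sources used here, so reads of Gpx8 and Cdc20b may not be fully separated.

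**Figure D2:**
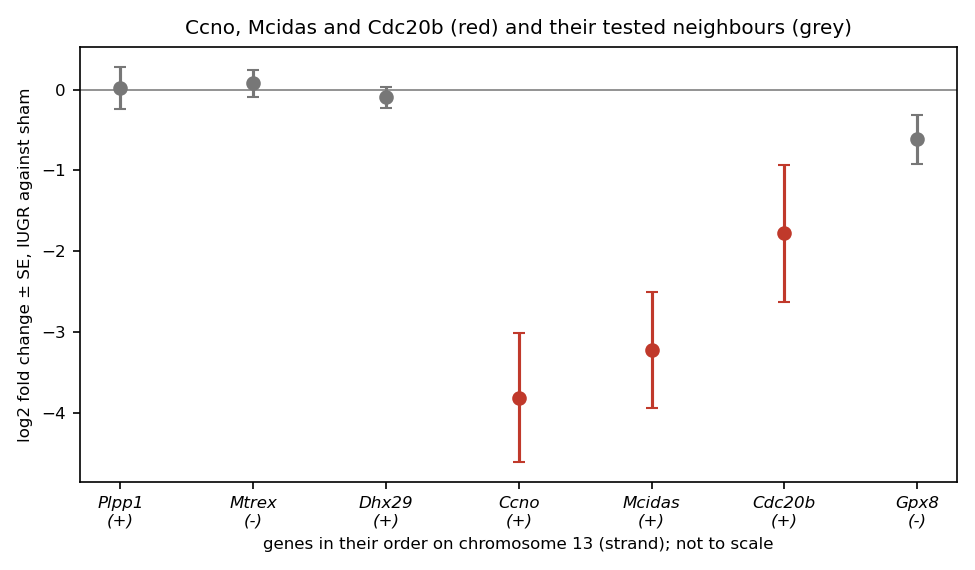
Log2 fold change of IUGR against sham (vertical axis, points with SE bars from edgeR) for Ccno, Mcidas and Cdc20b (red) and their tested neighbours (grey) in their order along chromosome 13, with spacing not to scale. The 3 red points lie between −3.81 and −1.78, the neighbours at lower coordinates within 0.1 of 0, and Gpx8, inside Cdc20b, at −0.62.

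The stretches before Ccno and Mcidas are shown because these neighbours have the lowest log2 fold changes of the 9 genes. They come from RefSeq (GRCm38.p6), on the plus strand, at chr13:112987552-112987801 for Ccno and chr13:112993618-112993844 for Mcidas, where the stretch is cut at the GENCODE start, 23 bases short of the RefSeq start, and capitals mark the half-site of RFX factors, GTTGCC.
Ccno: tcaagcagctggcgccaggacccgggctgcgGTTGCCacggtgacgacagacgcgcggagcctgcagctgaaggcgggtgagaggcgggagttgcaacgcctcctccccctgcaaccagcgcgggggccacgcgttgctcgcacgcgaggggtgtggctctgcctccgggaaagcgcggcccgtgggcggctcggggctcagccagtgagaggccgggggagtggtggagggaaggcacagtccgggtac
Mcidas: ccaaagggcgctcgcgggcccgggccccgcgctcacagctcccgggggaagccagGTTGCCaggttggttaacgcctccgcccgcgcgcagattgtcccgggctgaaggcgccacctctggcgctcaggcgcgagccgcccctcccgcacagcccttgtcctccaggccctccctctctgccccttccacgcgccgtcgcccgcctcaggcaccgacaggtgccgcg
The half-site begins 219 bases before the RefSeq start of Ccno and 195 bases before that of Mcidas, each in the direction of the gene. The letters GTTGCC, read on both strands, occur in 12.51% of 32851 RefSeq windows of the same length (250 bases before to 50 after a start), and in windows of 5 of the 8 members that have any, Ccno, Mcidas, Deup1, Rfx2 and Rfx3. Here and below, the percentages are shares of windows, while members are counted as genes. Deup1 and Gmnc have more than 1 window, so these figures are not directly comparable. Shorter stretches around the match are given for Deup1 (chr9:15627908-15627937, minus strand, the half-site on the other strand) and for Rfx2 (chr17:56831107-56831136, minus strand), where it begins 79 and 116 bases before the RefSeq start. For Deup1 the RefSeq start lies downstream of the GENCODE start and was not found in a GENCODE transcript, so this match is inside the gene as GENCODE gives it.
Deup1: ccgcgtctccatGGCAACccactgggaacc
Rfx2: agcttggtaaccGTTGCCgggcgcaacgcc
TAACNG, letters bound by MYB proteins, was found in windows of Deup1, Gmnc and Rfx2 (23.3% of all windows), the overlapping forkhead letters TGTTTAC and TGTTTA only in the window of Myb (3.65% and 13.4%), and the E2F letters GGCGGGAA in none of the 8 members' windows (2.19%). A match is a description of the letters and not a binding site.

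Cdc20b also holds the hairpins of miR-449a and miR-449c on its own strand. These microRNAs are known for high levels in multiciliated cells, and their mature 5p forms from RefSeq share the seed, bases 2 to 8, shown in capitals.
mmu-miR-449a-5p: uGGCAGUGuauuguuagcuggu
mmu-miR-449c-5p: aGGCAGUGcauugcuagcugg
The levels of these microRNAs were not analysed here.

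Deup1 encodes the scaffold of the deuterosome, the structure on which multiciliated cells assemble most of their centrioles, and is a paralog of the centrosomal gene Cep63. It was measured at 8.14, 2.21, 0.450 and 0.253 CPM in T1-5, T1-3, T1-1 and T1-4 and at 13.1, 18.1, 23.1 and 21.2 CPM in S1-6, S3-4, S1-4 and S3-1. The groups did not overlap, T1-5 was again the highest IUGR sample, and T1-1 and T1-4 rested on 6 and 3 counts. The means were 2.76 ± 3.69 CPM (SD, n = 4) and 18.9 ± 4.38 CPM (SD, n = 4), with a log2 fold change of −2.76 (SE 0.77) with all samples, −4.20 without T1-5 and −3.81 by limma-voom. Cep63, which serves centrioles of dividing cells, had a log2 fold change of −0.11 (SE 0.14, edgeR adjusted p = 1.00). Deup1 lies on chromosome 9 at 15559864 to 15627933, minus strand.

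Rfx2, Rfx3 and Myb, which also act in cells without motile cilia, had the smallest fold changes of the 9. Rfx2 was measured at 3.95, 7.74, 5.10 and 5.98 CPM in T1-5, T1-3, T1-1 and T1-4 and at 14.3, 9.91, 8.04 and 3.84 CPM in S1-6, S3-4, S1-4 and S3-1. Sham sample S3-1 was below all IUGR samples, so the groups overlapped, and the log2 fold change was −0.66 (SE 0.37). Rfx3 was measured at 237, 199, 190 and 197 CPM in T1-5, T1-3, T1-1 and T1-4 and at 250, 266, 227 and 180 CPM in S1-6, S3-4, S1-4 and S3-1, with a log2 fold change of −0.17 (SE 0.14). The ranges overlapped throughout, on 2290 to 3731 counts a library. For Myb, the values were 17.7, 9.22, 20.2 and 18.2 CPM in T1-5, T1-3, T1-1 and T1-4 and 22.6, 24.7, 21.8 and 16.1 CPM in S1-6, S3-4, S1-4 and S3-1, and the log2 fold change was −0.38 (SE 0.25). T1-3 was the lowest sample for Myb, while T1-1 and T1-4, the lowest samples for Ccno, Cdc20b and Deup1, were among the sham values. Rfx2 lies on chromosome 17 (56775897 to 56831013), Rfx3 on chromosome 19 (27761721 to 28011166) and Myb on chromosome 10 (21124935 to 21160984), all on the minus strand.

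All 9 genes passed the count filter, Ccno and Mcidas only through their sham counts, since their mean IUGR counts were under 10. With all samples, 2 of the 9 met the rule as lower (Foxj1 and Ccno) and so count as called, beside 1.36% of all 13707 tested genes. Called higher were 0 of the 9, beside 0.102% of tested genes, and all 9 fold changes were below 0 in edgeR, DESeq2 and limma-voom. In 4 of the 9 (Foxj1, Ccno, Mcidas and Deup1) every IUGR sample was below every sham sample, beside 5.06% of tested genes. The median log2 fold change of the 9 was −1.78, beside −0.02 over all tested genes. As the members were chosen with this contrast known, nothing is read from these counts.

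The IUGR samples differed among themselves in a gene-dependent way. As a percentage of the sham mean, T1-5 was at 18.1 for Ccno, 21.8 for Foxj1, 26.6 for Mcidas, 43.1 for Deup1, 95.7 for Cdc20b and 107.3 for Gmnc. T1-3 was at 9.52 for Ccno, 11.4 for Mcidas, 11.7 for Deup1, 14.5 for Cdc20b, 17.5 for Gmnc and 26.4 for Foxj1. In T1-5, Gmnc was within the sham range while Foxj1 and Ccno were not, and in T1-3 the 6 genes were all at 26.4 percent of their sham means or less. T1-1 and T1-4 were at 15.09 and 15.03 for Foxj1 and at most at 3.98 for the other five genes, each on 8 counts or fewer. Among these 6 genes and in percent of the sham mean, Foxj1 therefore varied least between IUGR samples, from 15.03 to 26.4 percent, and Gmnc most.

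**Figure D3:**
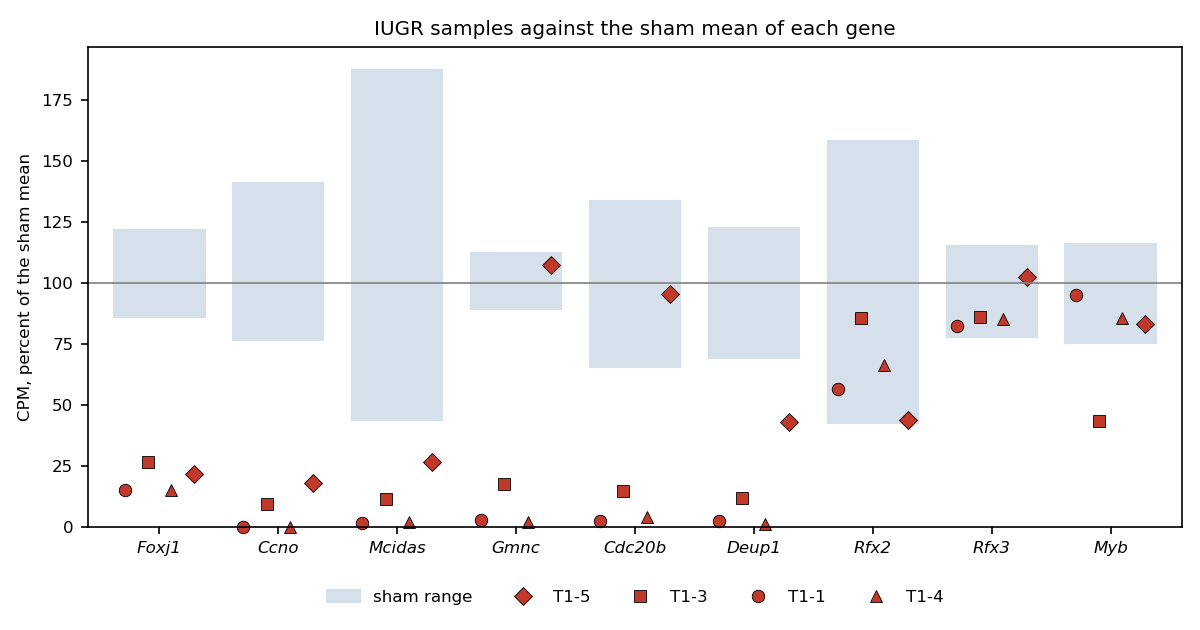
CPM of each IUGR sample (red markers, shape naming the sample) as a percentage of the sham mean (vertical axis, linear from 0), with the grey-blue boxes spanning the 4 sham samples and the line at 100 percent. T1-5 reaches 107.3 percent for Gmnc and 95.7 percent for Cdc20b, while all IUGR samples stay at or below 26.4 percent for Foxj1.

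The fits were repeated without T1-1 and T1-4, which stood apart in the clustering, and then with T1-1 and T1-4 as the only IUGR samples. Without T1-1 and T1-4, edgeR called 239 genes, 140 lower and 99 higher, and Foxj1 and Ccno had log2 fold changes of −2.05 and −2.87. The fold changes of the others were −2.42 for Mcidas, −1.88 for Deup1, −0.88 for Cdc20b, −0.69 for Gmnc, −0.66 for Myb, −0.62 for Rfx2 and −0.08 for Rfx3. Without T1-3 and T1-5, edgeR called 531 genes, 526 lower and 5 higher. The fold changes were −2.73 for Foxj1, −5.60 for Mcidas, −5.25 for Gmnc, −4.93 for Cdc20b and −5.69 for Deup1. In that fit Ccno had IUGR counts of 0 only, so its fitted fold change is not given. T1-1 and T1-4 were set apart on these same expression values, where they lay farthest from sham. The larger counts without T1-3 and T1-5, here and below, therefore support nothing.

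Among the sham samples alone, levels were compared per kilobase of exon. Foxj1 was highest, at 38.3 ± 6.11 CPM per kb (SD, n = 4), followed by Rfx3 at 20.9 ± 3.41 and Deup1 at 5.70 ± 1.32 CPM per kb, and the ranges of neighbours in this order did not overlap down to Gmnc. Gmnc (3.48 ± 0.329), Cdc20b (3.48 ± 0.971), Ccno (3.29 ± 0.937), Myb (2.38 ± 0.411), Mcidas (1.81 ± 1.11) and Rfx2 (1.23 ± 0.592 CPM per kb) followed, and from Gmnc on each range overlapped with the next. The dissected sham tissue, whose libraries also held choroid plexus markers, thus held all 9 transcripts, including those best known from multiciliated cells. Which cells or structure they came from was not tested. In the IUGR samples Rfx3 (18.6 ± 1.91 CPM per kb) was above Foxj1 (7.49 ± 2.12 CPM per kb), with no overlap of their ranges.

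Values of 6 members were set beside the choroid plexus list by sample. Relative to the sham mean, that list averaged −1.88 (T1-5), −2.06 (T1-3), −5.13 (T1-1) and −5.70 (T1-4) on the log2 scale. T1-5 and T1-3 were thus nearly alike for these markers, whereas they differed for Gmnc, at 0.11 and −2.46 on the same scale, for Cdc20b, at −0.02 and −2.55, and for Deup1, at −1.17 and −2.98. Ccno was at −2.31, −3.13, −5.76 and −5.76 in T1-5, T1-3, T1-1 and T1-4, the last 2 from counts of 0 and so set by the prior count. Mcidas was at −1.60, −2.60, −4.10 and −4.04, the last 2 on 1 count each. In T1-1 and T1-4, Gmnc (−4.74 and −5.12) and Deup1 (−4.95 and −5.51) were near the list, and Cdc20b, on 2 and 3 counts, was at −4.38 and −3.96. At counts this low, the prior count limits how far a value can fall below the sham mean. Foxj1 was at −2.18, −1.90, −2.70 and −2.71 in T1-5, T1-3, T1-1 and T1-4, a range under 1, while the choroid plexus list ranged over more than 3 units. The cortical hem list was at −1.58, −1.03, −2.81 and −2.75 in the same order of samples. It was nearer to Foxj1 than the choroid plexus list in T1-1 and T1-4, but not in T1-5 and T1-3. The part of the choroid plexus or of the cortical hem in the lower member values was not tested.

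**Figure D4:**
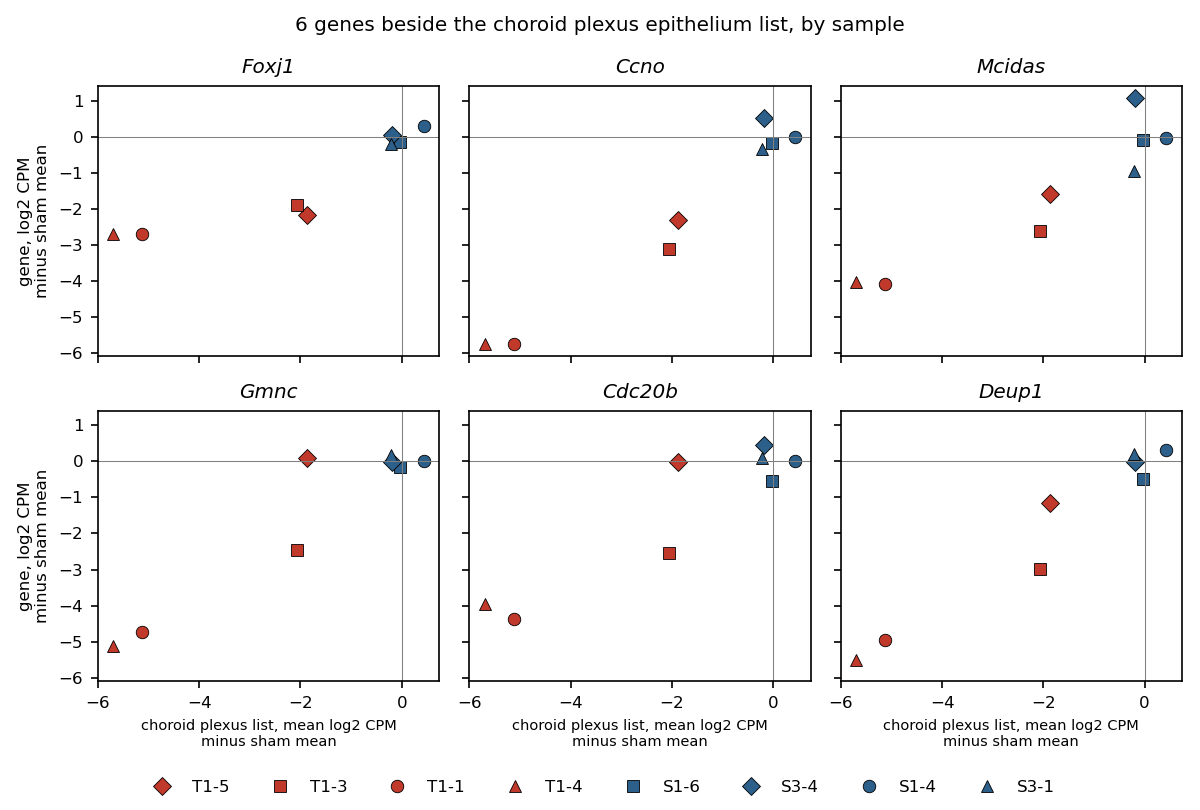
Log2 CPM of 6 genes (vertical axes) against the choroid plexus epithelium list, as its mean log2 CPM (horizontal axes), each minus its sham mean, in the 4 sham (blue) and 4 IUGR samples (red). T1-3 and T1-5 are side by side on the horizontal axis (−2.06 and −1.88) and apart on the vertical axis for Gmnc (−2.46 and 0.11).

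Among the choroid plexus markers, 3 of 15 were called lower by edgeR: Folr1, the folate receptor of this epithelium (−4.16, SE 0.85, adjusted p = 0.0411), the tight junction gene Cldn2 (−3.76, SE 0.63, adjusted p = 0.0219) and the homeobox gene Otx2 (−1.28, SE 0.27, adjusted p = 0.0482). The list's median log2 fold change was −3.07. The count of called choroid plexus markers was 6 with DESeq2, 12 with limma-voom, 11 without T1-1 and T1-4, 15 without T1-3 and T1-5 and 0 with either sham prefix alone (edgeR, 14 and 13 at an unadjusted p under 0.05). It was 4 without T1-5 or T1-3, 2 without T1-4, 1 without S1-6 and 0 without T1-1, S3-4, S1-4 or S3-1. Of 12 cortical hem genes, 7 were called lower, led by Lmx1a (−3.09, SE 0.45, edgeR adjusted p = 0.0117), Wnt3a (−3.03, SE 0.44, adjusted p = 0.0114), Rspo2 (−2.88, SE 0.50, adjusted p = 0.0239) and Wnt2b (−2.40, SE 0.50, adjusted p = 0.0487). The median log2 fold change of the hem list was −1.93. DESeq2 called 8 hem genes and limma-voom 7. Without T1-1 and T1-4, 3 hem genes were called, without T1-3 and T1-5 10, and with either sham prefix alone 0 (edgeR, 8 at an unadjusted p under 0.05 in each). Leaving out single samples gave 6 without T1-5 or T1-3, 5 without S3-1, 4 without S1-6, 3 without T1-1, S3-4 or S1-4, and 2 without T1-4. In both lists the summed level of every IUGR sample was below that of every sham sample.

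Markers of other cells had medians between −0.48 and 0.41. The 8 genes of the hippocampal primordium had a median of −0.48 with 0 called, 2 of them (Prox1 and Neurod1) lower at an unadjusted p under 0.05 in edgeR and none called by DESeq2 or limma-voom, and Emx2 (−0.74, SE 0.44) and Lef1 (−0.67, SE 0.36) had the largest fold changes, with adjusted p-values of 0.695 and 0.623. Summed over that list, IUGR samples had 817 to 933 CPM and sham samples 773 to 1506 CPM. Neuronal markers (8) had a median of 0.30 with 0 called and 4 (Map2, Snap25, Syt1 and Stmn2) higher at an unadjusted p under 0.05, led by Syt1 (1.08, SE 0.25, edgeR adjusted p = 0.0629) and Stmn2 (0.66, SE 0.21, adjusted p = 0.204), and DESeq2 and limma-voom each called Syt1. Summed over the neuronal list, every IUGR sample (5098 to 5495 CPM) was above every sham sample (3912 to 4917 CPM), and the part of this in the member values was not tested. Radial glia and cycling progenitors (10 genes, median −0.09), microglia (8 genes, 0.30) and erythroid cells (7 genes, 0.41) had 0 called by edgeR, DESeq2 or limma-voom and 0 at an unadjusted p under 0.05 in edgeR.

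The wider program is given by role, and the difference between its lists was not tested. Genes of the motile axoneme, the structure built under Foxj1 and RFX factors, had a lower IUGR mean in 25 of 25 tested genes, 10 of them called lower, and the median log2 fold change was −1.91. A further 5 listed genes were not analysed here. The leading ones were Pifo, a gene of ciliated cells (−3.50, SE 0.74, edgeR adjusted p = 0.0489), the tektin Tekt4 (−3.44, SE 0.58, adjusted p = 0.0229), the dynein light chain Dynlrb2 (−3.40, SE 0.56, adjusted p = 0.0207) and Dnaaf1, which helps to assemble dynein arms (−3.39, SE 0.68, adjusted p = 0.0376). Tekt4 and Dnaaf1 had mean IUGR counts under 10 and passed the count filter only through their sham samples, so their calls lean on that filter. In 17 of the 25 every IUGR sample was below every sham sample. The axoneme list followed the members by sample, with mean log2 CPM relative to sham of −1.08, −1.95, −3.50 and −3.55 in T1-5, T1-3, T1-1 and T1-4, beside −0.93, −1.90, −3.07 and −3.11 for the 9 members. The count of called axoneme genes was 17 with DESeq2, 16 with limma-voom, 8 without T1-1 and T1-4, 23 without T1-3 and T1-5 and 22 without T1-5. With either sham prefix alone it was 0 (edgeR, 20 at an unadjusted p under 0.05 in each). It was 6 without T1-3, 2 without T1-1, 3 without T1-4, 4 without S1-6, 1 without S3-4 or S3-1, and 0 without S1-4.

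Of 20 tested centriole genes, most of which also serve dividing cells, 0 were called by edgeR, DESeq2 or limma-voom. Cetn4, a centrin gene with a mean count of 28.6 that was singled out after its values were seen, was the 1 lower at an unadjusted p under 0.05 in edgeR (−1.11, SE 0.33, adjusted p = 0.164), with no overlap between the groups. The median was −0.14, and the 2 largest fold changes among well counted genes were those of Cetn2, a centrin (−0.33, SE 0.16, edgeR adjusted p = 0.535), and Cep164, a distal appendage gene (−0.28, SE 0.14, adjusted p = 0.537). Among 8 tested cofactors of the program, which include E2f4, E2f5, Tfdp1 and Gmnn, 0 were called by edgeR or limma-voom and 1 (Fank1) by DESeq2, and the median was −0.04. Fank1, a gene of ciliated cells, had −1.10 (SE 0.30, edgeR adjusted p = 0.110), with 2.90 ± 1.06 CPM (SD, n = 4) for IUGR against 6.26 ± 0.786 CPM (SD, n = 4) for sham and no overlap. Trp73, which acts upstream of Foxj1, had −0.67 (SE 0.46, adjusted p = 0.800). Foxn4 was not analysed here. In this list Fank1 was lower and Jazf1 higher at an unadjusted p under 0.05 in edgeR.

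Of 12 tested paralogs of the members, 0 were called by edgeR, DESeq2 or limma-voom, 1 (Rfx4) was lower at an unadjusted p under 0.05 in edgeR, and the median was −0.09. Rfx4, an RFX factor of neural progenitors, had −0.73 (SE 0.26, edgeR adjusted p = 0.276), larger in size than the values of Rfx2, Rfx3 and Myb, while Foxj2 had 0.10 (SE 0.23) and Foxj3 0.09 (SE 0.13), with adjusted p-values of 1.00. Notch signals hold cells back from the multiciliated fate, and 0 of 12 genes of that pathway were called by edgeR, DESeq2 or limma-voom, with 1 lower (Notch2) and 1 higher (Heyl) at an unadjusted p under 0.05 in edgeR. The largest fold changes there were those of Heyl (1.33, SE 0.58, edgeR adjusted p = 0.416) and Notch2 (−0.63, SE 0.27, adjusted p = 0.406).

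**Figure D5:**
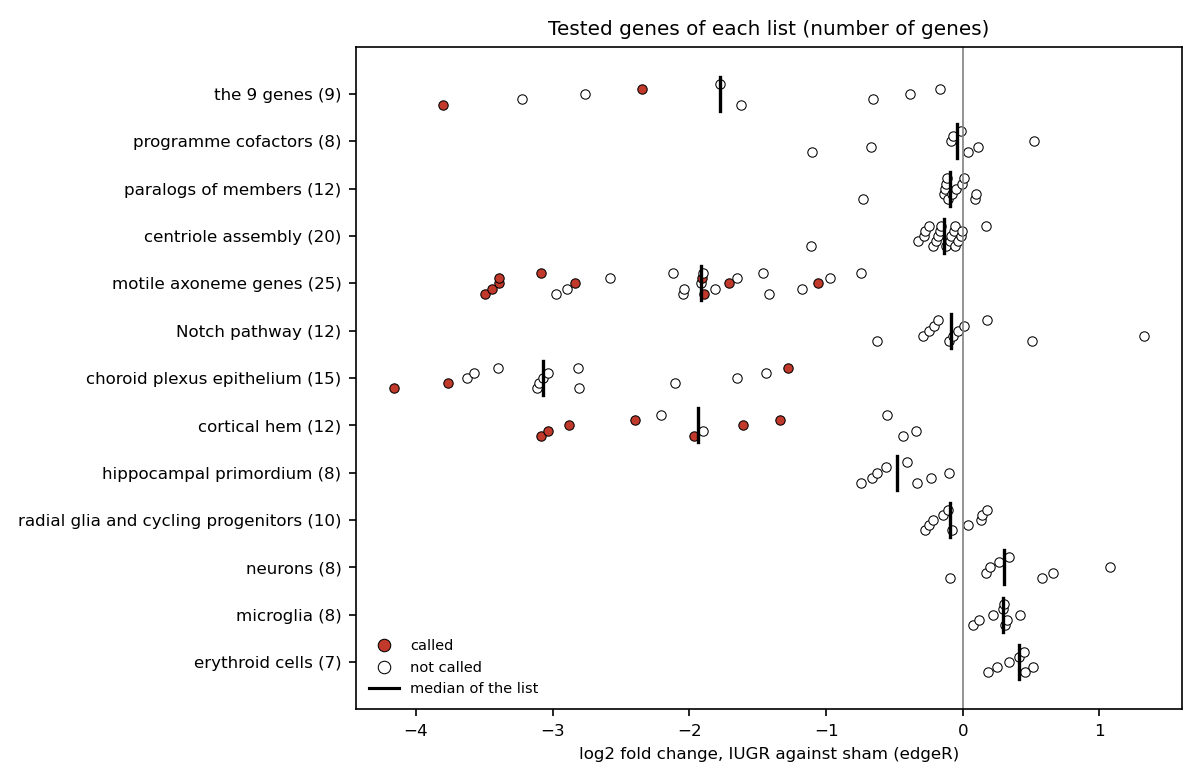
Log2 fold change of IUGR against sham (horizontal axis, edgeR) for each tested gene of the 9 members and of 12 lists (rows, with the number of genes), filled red where called and open where not, with a black bar at each list's median. The medians are −1.78 for the 9 genes, −1.91 for the motile axoneme, −1.93 for the cortical hem and −3.07 for choroid plexus epithelium, and within 0.5 of 0 for the lists of cofactors, paralogs, centriole assembly and Notch.

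The genes whose values across the 8 samples were most like those of Foxj1 were ranked by the root mean square difference of centred log2 CPM. Among 11906 genes whose mean count reached 50, the nearest to Foxj1 were Cfap57 (0.159), Col9a3 (0.267), Rsph10b (0.270), Lpcat2 (0.287) and Spag8 (0.287), beside a median difference of 1.24. Cfap57, the closest, was at 2.14 ± 0.822 CPM (SD, n = 4) for IUGR against 10.9 ± 1.91 CPM (SD, n = 4) for sham. The nearest to Ccno were Car12 (0.330), Cfap52 (0.366), 4833427G06Rik (0.390), Cldn2 (0.396) and Abcg5 (0.397), beside a median of 2.40. Mcidas, with a mean count of 30.4, was below that minimum and was not ranked. Of the ranked members, Deup1 was the closest to Ccno, at rank 11 (0.520), followed by Gmnc at rank 58 and Cdc20b at rank 70, and Foxj1 came at rank 135. For likeness to Foxj1, the 7 ranked members came at rank 856 (Rfx2) or further down. Myb (1359) and Rfx3 (1654) came ahead of Deup1 (5583), Ccno (9125) and Gmnc (10296). The measure depends on the size of a change as well as its direction, so a far rank does not mean that a gene moved otherwise than Foxj1. The genes near Foxj1 and those near Ccno share the 8 samples and the group difference.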

How the data were processed

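Ribosome-depleted total RNA (TruSeq Stranded, single reads) had been sequenced from 8 hippocampi. Reads were aligned to mm10, with Novoalign 2.8 named in the submitters' processing notes; the counting program, its strand setting and the annotation release are not given in the sources used here. The authors deposited raw counts per gene, whole numbers without normalization, 1 column per sample. The 16397 rows were matched by identifier to GENCODE M21, leaving 273 unmatched. The 13707 protein-coding genes whose mean count was 10 or more and below 50000 were tested in R 4.3.3 with edgeR 4.0.16 (TMM, quasi-likelihood test, Benjamini-Hochberg adjustment across all 13707). Calls required an adjusted p no higher than 0.05 together with a log2 fold change of 1 or more in size. Log2 CPM used a prior count of 2. DESeq2 1.42.0 and limma 3.58.1 served as alternatives.

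The members, lists and the rule for naming genes were chosen with earlier results of these data known. Named were all 9 members, up to 4 called genes a list by size of fold change, the 2 largest with a mean count of at least 50 where fewer than 2 were called, 3 neighbours on each side of the chromosome 13 genes, and the 5 genes nearest to Foxj1 and to Ccno. Cep63, Cetn4, Foxj2, Foxj3, Ttr and genes named only for an unadjusted p or without values were added after their values were seen. Listed genes without a matching row were not analysed here. Tested on simulated data of this comparison with 13707 genes, edgeR recovered 18, 46, 50 and 50 of 50 genes changed 2, 4, 8 and 16 times, with 6 false calls. The simulated samples of a group varied independently, without the clusters seen among the IUGR samples, so these shares do not carry over to the real data. There, 12 of the 15 tested choroid plexus markers were not called by edgeR, at a list median of −3.07. The intervals that a count of 0 allows cover counting error only.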

Additional observations from a re-analysis of the deposited data

Results flagged for a closer look

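For the 9 genes, the highest or lowest sample of each group was compared with the gap that 4 samples should not exceed (Dixon's ratio, at its 95% critical value). Of 18 gene and group combinations, 2 exceeded it, where chance flags about 1 in 20. In the IUGR group, T1-5 stood apart for Gmnc, at 21.4 CPM (ratio 0.853), and for Cdc20b, at 6.08 CPM (ratio 0.870). On log2 CPM, a scale tried after seeing the data, neither exceeded it, with ratios of 0.490 and 0.582. In both genes, T1-5 was at the sham level while the other three IUGR samples were below every sham sample.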

How the results depend on the processing

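The log2 fold changes of the 9 genes stayed below 0 in every fit in which they were tested. The count of called genes, 200 with all samples, was 425 with DESeq2 (341 lower and 84 higher), 328 with limma-voom, 73 when mean counts had to reach 50 and 81 when every sample had to reach a count of 10. It was 531 without T1-3 and T1-5, 2 with the S3 sham samples alone and 0 with the S1 sham samples alone, where 1053 genes had an unadjusted p under 0.05 in edgeR. Leaving out single samples gave 41 to 298 called genes. Of the 9 members, which were chosen with the contrast known, 2 met the call rule with all samples, and these counts support nothing. The count was 4 with limma-voom (with Mcidas and Deup1), 6 without T1-3 and T1-5, 0 with either sham prefix alone in edgeR, and 1 (Foxj1) with the robust fit, with upper-quartile normalization, with a mean count of at least 50 (8 members tested) or with a count of at least 10 in every sample (4 tested). Leaving out single samples gave 1 to 6 called members. Ccno was not called by DESeq2, which called Foxj1 and Mcidas. DESeq2's adjusted p of Gmnc was not available. For the 3 lists with called genes, motile axoneme, choroid plexus and cortical hem, 39 of 66 counts under other settings moved by more than 1.5 times. The other lists had 0 called with all samples, which says nothing of their stability, and 5 of their 198 counts under other settings were above 0. The cause of these changes was not tested, apart from the smaller number of genes or samples in the filtered and reduced fits. No paired analysis was possible because the labels pair no samples across the groups. Depth limits Ccno, Mcidas, Gmnc, Cdc20b and Deup1 in T1-1 and T1-4, which rest on 0 to 8 counts.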
